A study of Mus musculus with 9 samples.

Results

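The forkhead genes are described here across 9 RNA sequencing libraries of mouse embryonic stem cells, pluripotent cells of the early embryo. Members were chosen by name alone, as the rows of the deposited count table whose symbol is Fox, a letter from a to s and then digits only. This rule found 43 members in 19 lettered subfamilies, of 33924 rows in the table. The summed count over the 9 libraries was at least 90 for 27 members. The filter on low counts let 28 members into the test, the additional one being Foxe1 with a summed count of 89, and 15 members were not tested. The libraries fell into 3 groups of 3. The cells labelled MLL4 knockdown, titled JM8A followed by a number, carry a label of reduced MLL4 (gene Kmt2d), a methyltransferase of H3K4 at enhancers. The UTX knockout cells, titled A6, lacked UTX (gene Kdm6a), a demethylase of H3K27, and the wild type cells were titled JM8A. All were male cells, per the labels, grown on gelatin in serum with the cytokine LIF, and none was treated. Neither A6 nor that number is explained by the labels, so a difference between lines or clones cannot be told apart from the perturbation. The series title places UTX, MLL4 and the acetyltransferase p300 in a network of gene regulation, and the 3 comparisons ask which transcripts differ between these cells.

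Forkhead proteins are transcription factors that bind DNA through a shared winged-helix domain, and each lettered subfamily has its own partners and tissues. In pluripotent cells and the early embryo the family is known for Foxd3, which maintains epiblast and later neural crest progenitors, for Foxh1, the DNA-binding partner of SMAD proteins in Nodal signalling, and for the FoxO proteins, which insulin and PI3K-AKT signalling keep out of the nucleus. Other members drive single cell fates, among them Foxa2 in endoderm, Foxj1 in cells with motile cilia and Foxn4 in retinal and spinal interneuron progenitors.

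Promoter sequence was available from RefSeq (GRCm38.p6) for 28 of the 43 members, in 33 entries, and 6 of the 12 members that changed below had an entry. The 250 bases before the annotated start are given 5′ to 3′ on the gene's own strand, with each CpG dinucleotide in capitals. Foxn4 (chr5:114273762-114274011, minus strand), Foxd3 (chr4:99656049-99656298, plus strand), Foxi3 (chr6:70956356-70956605, plus strand) and Foxr1 (chr9:44440869-44441118, minus strand) are shown because their differences between groups were among the most stable. Foxr2 (chrX:153118538-153118787, plus strand) is shown as a paralog of Foxr1 with few CpGs.
Foxn4: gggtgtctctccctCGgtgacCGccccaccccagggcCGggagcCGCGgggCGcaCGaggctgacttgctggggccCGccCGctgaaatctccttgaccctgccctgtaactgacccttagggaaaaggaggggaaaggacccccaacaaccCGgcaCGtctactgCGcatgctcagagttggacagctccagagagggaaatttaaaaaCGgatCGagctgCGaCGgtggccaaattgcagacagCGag
Foxd3: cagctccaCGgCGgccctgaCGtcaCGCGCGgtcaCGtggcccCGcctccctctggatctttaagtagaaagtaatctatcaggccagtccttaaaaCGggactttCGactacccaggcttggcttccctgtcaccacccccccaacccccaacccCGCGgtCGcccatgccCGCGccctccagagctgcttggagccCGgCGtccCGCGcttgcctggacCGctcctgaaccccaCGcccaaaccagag
Foxi3: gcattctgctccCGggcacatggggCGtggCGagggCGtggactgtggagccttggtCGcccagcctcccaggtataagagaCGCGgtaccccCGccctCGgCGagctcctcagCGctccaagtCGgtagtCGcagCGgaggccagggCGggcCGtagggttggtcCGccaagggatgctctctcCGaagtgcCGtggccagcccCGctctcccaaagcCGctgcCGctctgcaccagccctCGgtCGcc
Foxr1: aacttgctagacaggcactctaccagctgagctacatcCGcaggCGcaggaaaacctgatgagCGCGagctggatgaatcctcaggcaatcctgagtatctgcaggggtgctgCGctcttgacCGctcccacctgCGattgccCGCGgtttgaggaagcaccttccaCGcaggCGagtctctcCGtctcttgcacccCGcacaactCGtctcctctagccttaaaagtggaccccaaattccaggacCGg
Foxr2: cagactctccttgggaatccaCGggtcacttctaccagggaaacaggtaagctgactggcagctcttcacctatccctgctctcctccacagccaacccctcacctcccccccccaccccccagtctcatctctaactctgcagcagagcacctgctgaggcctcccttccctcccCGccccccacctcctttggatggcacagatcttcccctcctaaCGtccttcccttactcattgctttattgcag
The first 4 of these held 17, 21, 24 and 15 CpGs in the order shown, and Foxr2 held 3. The median over the member entries was 16 CpGs, against 6 over all 32851 entries in the table, and 25.4% of all entries held at least 16. Tested members that did not change were not poorer in CpG than those that did, with a median of 27.0 over their entries. The median was 16.0 over entries of the 6 changed members with an entry and 7.0 over entries of untested members. The forkhead core motif TGTTTAC was searched on both strands and stood in 1 member entry, that of Foxa1, against 3.17% of all entries. The Foxh1 motif AATNNACA, also on both strands and allowed to overlap the first, stood in 3 member entries, of Foxp1 and Foxp3, against 10.9% of all entries.

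**Figure D1:**
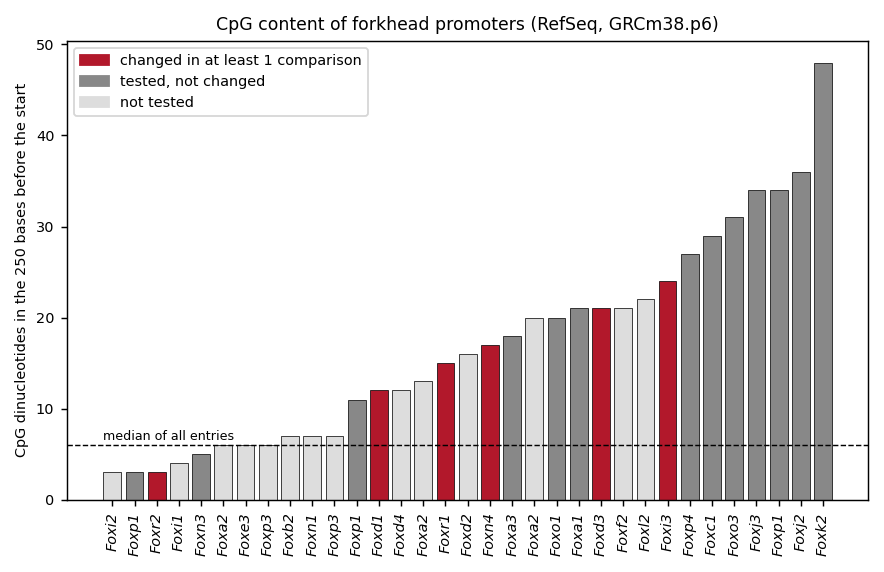
Number of CpG dinucleotides in the 250 bases before the start for each of the 33 member entries, in rising order (genes with several starts appear more than once). Bars are red for members that changed in at least 1 comparison, grey for tested members that did not and pale for untested members; the dashed line marks 6, the median of all entries, and members range from 3 to 48.

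Total counts lay between 18570746 and 23874816 per library. Levels are in CPM (reads of a gene scaled to a common library size with TMM factors), and differences are log2 fold changes from edgeR's quasi-likelihood test over all 14772 tested genes, called at an adjusted p under 0.05. The targeted gene Kdm6a stood at 12.8, 16.9 and 19.4 CPM in the UTX knockout, against 89.0, 57.1 and 90.6 CPM in wild type. Kmt2d, listed as Mll2, stood at 71.0, 72.0 and 73.4 CPM in the libraries labelled MLL4 knockdown, against 86.2, 43.5 and 119 CPM in wild type, and its log2 fold change was -0.20 with an SE of 0.27 (adjusted p = 0.624). The transcript therefore does not bear out that label against wild type, and every direction drawn from those libraries rests on the label. The fold change was -0.51 (adjusted p = 0.0353) without wild type replicate 2 and 0.16 without wild type replicate 3. Against the UTX knockout, at 110, 96.9 and 130 CPM, the libraries labelled MLL4 knockdown lay below without overlap (-0.64, SE 0.27, adjusted p = 0.0987). This value passed with the replicate block (adjusted p = 0.0376), with the 2 groups alone (0.00171), on lane 2 alone (0.0422), without the filter (0.0371) and without wild type replicate 2 (0.00644) or 3 (0.047). The Y chromosome differed between the groups. Its 4 tested genes had a median log2 fold change of -4.18 in the labelled MLL4 knockdown and -3.93 in the UTX knockout, both against wild type. Uty, the Y-linked paralog of Kdm6a, stood at 1.13, 0.724 and 1.11 CPM in the labelled MLL4 knockdown, 0.785, 0.908 and 0.789 CPM in the UTX knockout and 16.8, 9.67 and 15.7 CPM in wild type. Both perturbed groups thus share this difference from wild type, and its part in the values below was not tested. Whether libraries of the same group were grown as separate cultures is not given by the labels, and p-values here reflect the spread between these libraries, which may be technical. The 12 markers of embryonic stem cells summed to 6990 to 7690 CPM in the libraries labelled MLL4 knockdown, 6890 to 7510 CPM in the UTX knockout and 5890 to 6900 CPM in wild type. Taken singly, 0 of the 12 rose and 2 fell in the UTX knockout against wild type. In the labelled MLL4 knockdown against wild type 4 rose and 3 fell, so the sums do not stand for each marker. The wild type libraries differed among themselves in other markers: 12 fibroblast markers, of which Lum was at 0 in every library, summed to 50.5, 235 and 174 CPM in wild type replicates 1 to 3, and 8 trophectoderm markers to 121, 554 and 480 CPM. The same sums were 21.2 to 24.0 and 52.8 to 58.6 CPM in the libraries labelled MLL4 knockdown, and 17.4 to 32.1 and 70.2 to 109 CPM in the UTX knockout. In such bulk samples fewer cells of a type and less RNA per cell cannot be told apart.

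The family spanned a wide range of levels in these cells. Per kilobase of annotated exon, the highest mean levels over the 9 libraries were those of Foxk2 (22.2 CPM per kilobase), Foxm1 (20.6), Foxp4 (18.9), Foxh1 (18.6), Foxo4 (18.5) and Foxo3 (18.5), and the ranges of these 6 over libraries overlapped. The lowest tested members were Foxe1 (0.161) and Foxd1 (0.105 CPM per kilobase). A mean of at least 10 CPM was reached by 15 members, and 12 members lay at or above 20.5 CPM, the median over all tested genes. Of the 15 untested members, Foxb2, Foxe3 and Foxl1 had no count in any library. The other 12 (Foxa2, Foxb1, Foxd2, Foxd4, Foxf2, Foxi1, Foxi2, Foxl2, Foxn1, Foxp2, Foxp3 and Foxs1) had summed counts of 1 to 53, no single count above 11 and no level above 0.484 CPM.

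**Figure D2:**
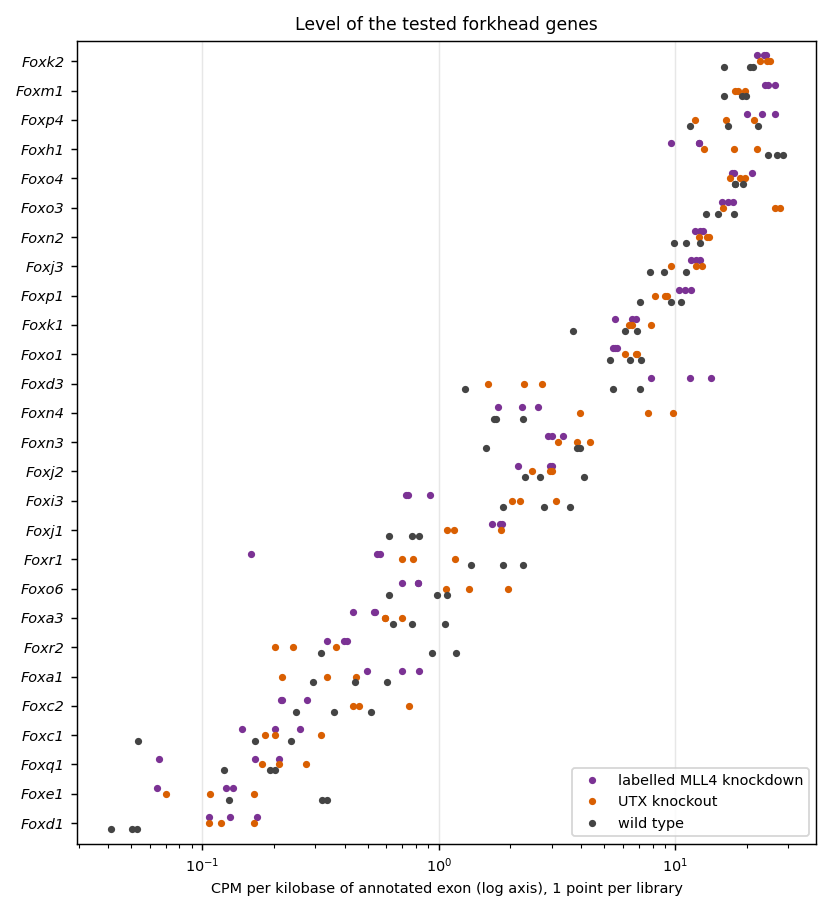
Level of 27 of the 28 tested members in CPM per kilobase of annotated exon (log axis), 1 point per library, with the libraries labelled MLL4 knockdown above the UTX knockout and wild type in each row. Members run in order of their mean, from Foxk2 at the top (22.2) to Foxd1 at the bottom (0.105), and groups separate for only some of them. All groups are apart for Foxh1 and Foxr1. For Foxd3 the labelled MLL4 knockdown lies above the other groups, which overlap, and for Foxn4 the UTX knockout does.

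As a group the forkhead genes changed about as often as other genes. In the UTX knockout against wild type 5 of 28 members passed the test, 3 higher and 2 lower, against 15.5% of all tested genes (6.55% higher and 8.92% lower). In the libraries labelled MLL4 knockdown against wild type 6 of 28 passed, 3 higher and 3 lower, against 26.6% of all genes (10.8% higher and 15.8% lower). In the libraries labelled MLL4 knockdown against the UTX knockout 8 of 28 passed, 2 higher and 6 lower, against 28.9% of all genes (13.0% higher and 16.0% lower). The shares of members were 17.9%, 21.4% and 28.6%, close to the background in each case. The median log2 fold change of members was 0.16, 0.07 and -0.12 in these comparisons, beside -0.01, -0.02 and -0.02 over all genes. Values of the 2 groups did not overlap for 6, 10 and 13 members, against 31.5%, 42.9% and 52.6% of all genes. The comparisons share libraries and are therefore not independent.

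In all, 12 members changed in at least 1 comparison and 16 in none. Foxd1, Foxh1 and Foxj1 changed in both comparisons with wild type, and Foxh1 was the member that changed in all 3. Of the 15 members with a mean of at least 10 CPM, 11 changed in none, while 8 of the 12 changed members had a mean under 10 CPM. The matching shares of all tested genes, over any comparison and by level, were not computed. These counts are therefore a description and do not set the members apart from other genes. Per the labels lane 2 held replicates 1 and 3, and lane 1 held replicate 2. On lane 2 alone, with 2 libraries a group, all 19 member calls kept their direction and 4 stayed past the threshold, those of Foxh1 (-1.31, adjusted p = 0.0252), Foxi3 (-1.95, 0.0234) and Foxr1 (-1.54, 0.0487) in the labelled MLL4 knockdown against wild type and of Foxi3 against the UTX knockout (-1.64, 0.0375). Lane 1 holds 1 library a group and gives no test. With the replicate number as a block, 10 members passed instead of 6 in the labelled MLL4 knockdown against wild type. Over all genes 5037 passed there instead of 3930. In the UTX knockout against wild type 7 members instead of 5 and 3446 genes instead of 2285 passed with the block.

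**Figure D3:**
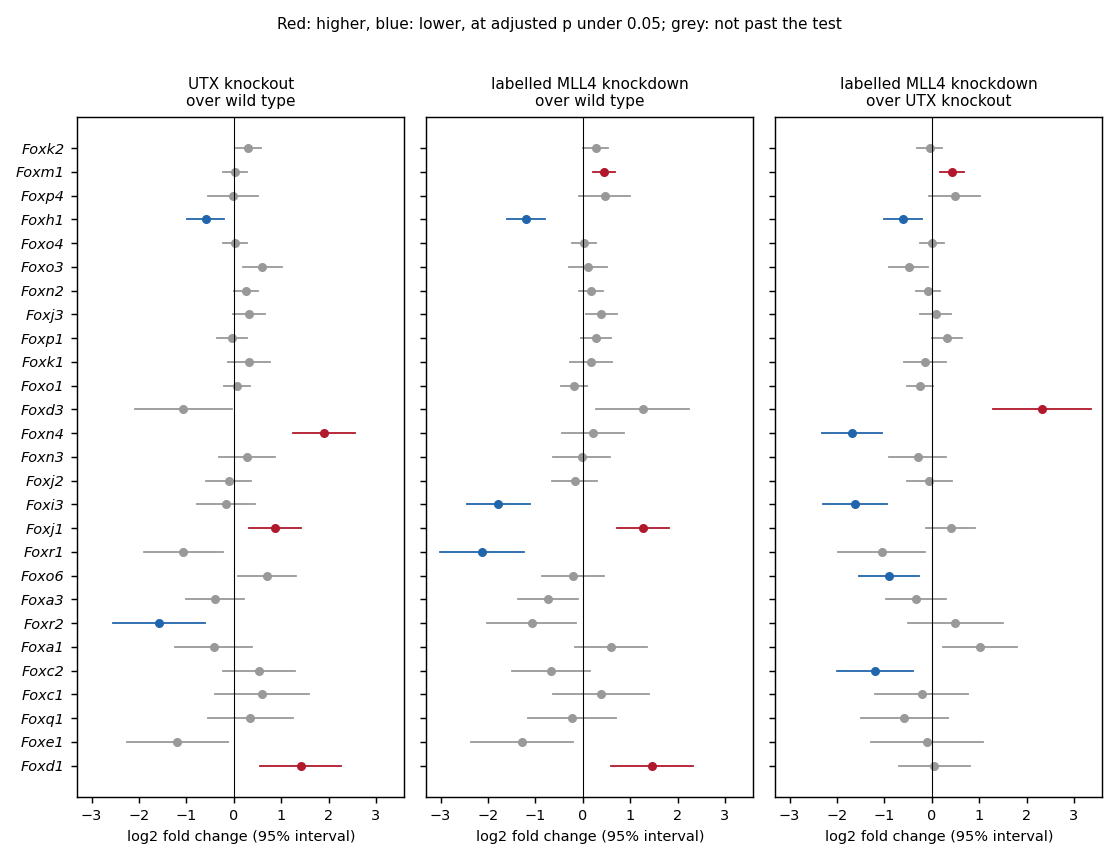
Log2 fold change (point) with its 95% interval (line) for 27 of the 28 tested members in the 3 comparisons, ordered by level with the highest at the top. Red marks members higher and blue members lower at an adjusted p under 0.05; 3 red and 2 blue points stand in the first panel, 3 and 3 in the second and 2 and 5 in the third, most of them in the lower part of the order.

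**Figure D4:**
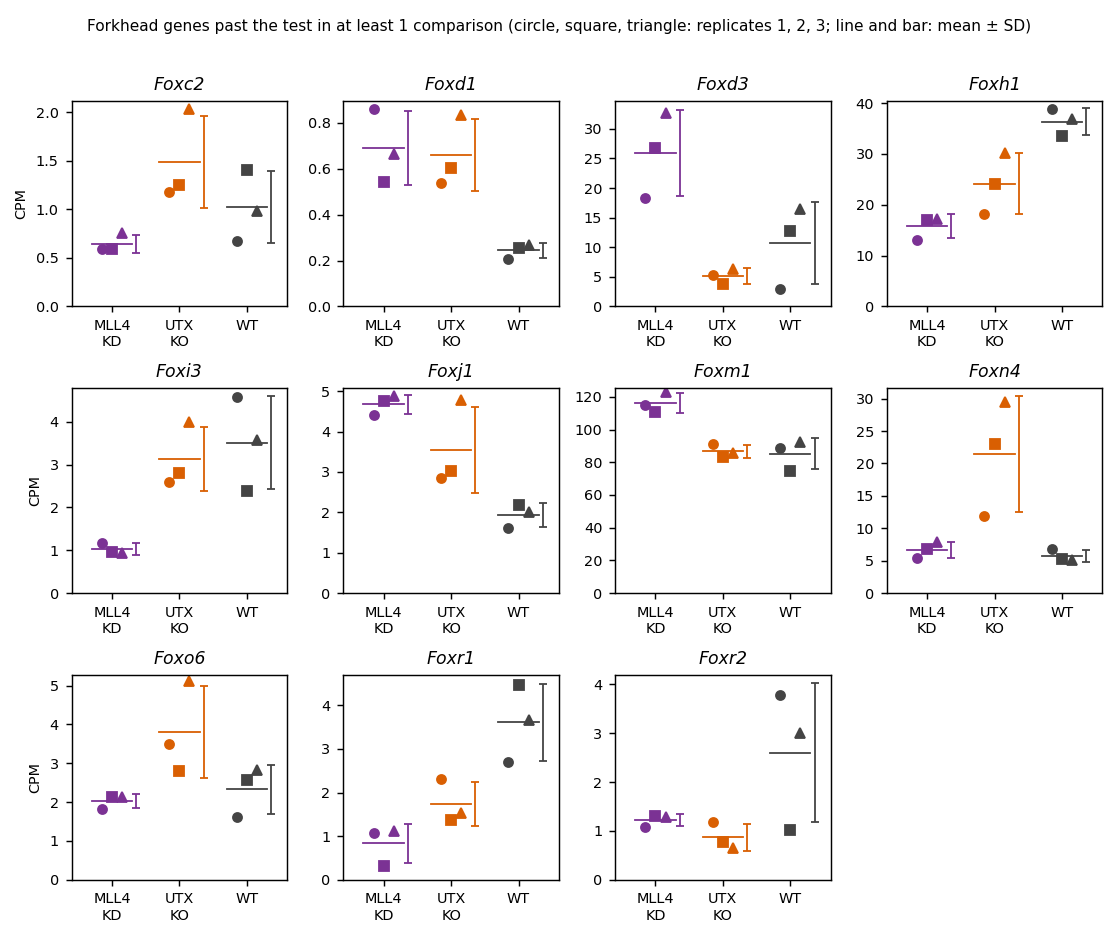
Level in CPM of 11 of the 12 members that changed in at least 1 comparison, with the libraries labelled MLL4 knockdown (MLL4 KD), the UTX knockout (UTX KO) and wild type (WT) from left to right. Each axis starts at 0; circles, squares and triangles are replicates 1, 2 and 3, the horizontal line is the mean and the bar the SD (n = 3). Foxh1 is lowest in the labelled MLL4 knockdown and highest in wild type, and Foxn4 stands apart in the UTX knockout.

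Foxh1, which brings SMAD2 and SMAD3 complexes to Nodal targets, was lower in both perturbed groups than in wild type. It lies on chromosome 15 and stood at 13.1, 17.1 and 17.2 CPM in the libraries labelled MLL4 knockdown, at 18.1, 24.1 and 30.1 CPM in the UTX knockout and at 38.8, 33.5 and 36.8 CPM in wild type. No 2 of the 3 groups overlapped. Foxh1 fell by 1.20 on the log2 scale in the labelled MLL4 knockdown against wild type (SE 0.18, adjusted p = 0.000938), a call that every alternative kept. In the UTX knockout against wild type it fell by 0.59 (SE 0.18, adjusted p = 0.0473), and leaving out any library except UTX knockout replicate 3 or labelled MLL4 knockdown replicate 1 ended this call (adjusted p between 0.0557 and 0.133). In the labelled MLL4 knockdown against the UTX knockout it fell by 0.61 (SE 0.18, adjusted p = 0.0296), a call that ended without UTX knockout replicate 2 or 3 or without any of the libraries labelled MLL4 knockdown (adjusted p between 0.0577 and 0.131).

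Genes of the Nodal and SMAD pathway around Foxh1 moved in both directions. Of 17 tested genes, 1 rose and 4 fell in the UTX knockout against wild type (median log2 fold change -0.03), 2 rose and 1 fell in the labelled MLL4 knockdown against wild type (median 0.31; 6 genes with the replicate block), and 4 changed between the perturbed groups, all of them higher in the labelled MLL4 knockdown (median 0.27). The shares and medians of all genes given above stand beside these counts, and those of the lists below, as description only. The lists were chosen with earlier results of these data known, so a departure from those shares is no test of a list. Lefty2, a secreted inhibitor of Nodal, stood at 49.7, 22.9 and 22.0 CPM in the labelled MLL4 knockdown, 4.71, 1.95 and 1.44 CPM in the UTX knockout and 32.3, 18.2 and 18.5 CPM in wild type. Lefty2 fell by 3.10 in the UTX knockout against wild type (SE 0.46, adjusted p = 0.00219) and rose by 3.55 in the labelled MLL4 knockdown against the UTX knockout (SE 0.46, adjusted p = 0.000396). Smad4, the common partner of the receptor-activated SMADs, rose by 0.43 in the labelled MLL4 knockdown against wild type (SE 0.10, adjusted p = 0.00831), at 111 ± 3.21 CPM against 82.4 ± 2.70 CPM (SD, n = 3 each).

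Foxd3, on chromosome 4, was higher in the labelled MLL4 knockdown than in the UTX knockout. It stood at 18.3, 26.7 and 32.7 CPM in the libraries labelled MLL4 knockdown, at 5.30, 3.76 and 6.36 CPM in the UTX knockout and at 3.01, 12.7 and 16.4 CPM in wild type. The labelled MLL4 knockdown lay above both other groups, and wild type replicate 1 lay below the whole UTX knockout. Foxd3 rose by 2.33 in the labelled MLL4 knockdown against the UTX knockout (SE 0.47, adjusted p = 0.00423). Against wild type the log2 fold change was 1.27 in the labelled MLL4 knockdown (SE 0.45, adjusted p = 0.0563) and -1.07 in the UTX knockout (SE 0.47, adjusted p = 0.143), and neither passed. The value in the labelled MLL4 knockdown passed with the replicate block (1.38, adjusted p = 0.00789), without wild type replicate 1 (0.85, adjusted p = 0.031) and without wild type replicate 3 (1.71, adjusted p = 0.0304). The UTX knockout value was -1.49 (adjusted p = 0.00387) without wild type replicate 1, whose 58 counts compare with 299 and 366 in the other wild type libraries. Wild type replicate 1 was also the wild type library with the lowest fibroblast and trophectoderm sums, and the part of this in the Foxd3 values was not tested. The 8 neural crest and neural markers in the table summed to 68.6 to 77.0 CPM in the labelled MLL4 knockdown, 75.1 to 94.0 CPM in the UTX knockout and 156 to 192 CPM in wild type, an order unlike that of Foxd3. Of the 7 tested, 2 rose and 3 fell in the labelled MLL4 knockdown against the UTX knockout, so the sum does not stand for each marker.

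Foxd1, known from kidney stroma and retina, was low in every library but higher in both perturbed groups than in wild type. Its counts were 16, 12 and 15 in the labelled MLL4 knockdown, 11, 14 and 18 in the UTX knockout, against 4, 6 and 6 in wild type. Both perturbed groups lay above wild type without overlap. The rise was 1.46 in the labelled MLL4 knockdown (SE 0.39, adjusted p = 0.0184) and 1.41 in the UTX knockout (SE 0.39, adjusted p = 0.0335). The first call ended without labelled MLL4 knockdown replicate 1 (adjusted p = 0.0684) or 3 (0.0545). The second ended under DESeq2 (adjusted p = 0.077) and when any library except UTX knockout replicate 1 or labelled MLL4 knockdown replicate 1 was left out (adjusted p between 0.0519 and 0.123). Foxd2, the neighbour of these in the subfamily, had at most 11 counts in a library and Foxd4 at most 3, and neither was tested.

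Foxn4, a switch for interneuron progenitors that acts upstream of Notch ligand genes, was highest in the UTX knockout. On chromosome 5, it stood at 5.38, 6.79 and 7.88 CPM in the labelled MLL4 knockdown, at 11.9, 23.0 and 29.5 CPM in the UTX knockout and at 6.86, 5.24 and 5.15 CPM in wild type. Every UTX knockout library lay above all others, although replicate 1 lay nearer to the other groups than to its own. Foxn4 rose by 1.90 in the UTX knockout against wild type (SE 0.30, adjusted p = 0.00268) and fell by 1.68 in the labelled MLL4 knockdown against the UTX knockout (SE 0.29, adjusted p = 0.00194). Of the alternatives, the use of lane 2 alone ended both calls (1.79, adjusted p = 0.101, and -1.64, adjusted p = 0.053). Its relatives differed less. Foxn2 stood at 66.2, 64.5 and 61.6 CPM in the labelled MLL4 knockdown, 63.8, 70.8 and 68.8 CPM in the UTX knockout and 56.3, 49.9 and 64.4 CPM in wild type, with overlapping groups. Foxn3, a repressor linked to cell cycle checkpoints, stood at 24.3, 26.9 and 23.3 CPM in the labelled MLL4 knockdown, 25.7, 30.9 and 35.0 CPM in the UTX knockout and 31.9, 12.8 and 30.9 CPM in wild type, where replicate 2 was low. Neither passed in any comparison (adjusted p of 0.16 or more), and Foxn1, the thymus regulator, had at most 4 counts in a library.

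Of 10 tested Notch and progenitor genes around Foxn4, 2 rose and 1 fell in the UTX knockout against wild type (median 0.34). In the labelled MLL4 knockdown 3 rose and 3 fell against wild type (median -0.63), and 3 rose and 4 fell against the UTX knockout (median -0.60). Dll1, a Notch ligand, stood at 3.66, 2.85 and 3.54 CPM in the labelled MLL4 knockdown, 14.6, 21.8 and 25.3 CPM in the UTX knockout and 18.4, 8.44 and 9.09 CPM in wild type. It fell by 2.62 in the labelled MLL4 knockdown against the UTX knockout (SE 0.32, adjusted p = 0.000274) and by 1.83 against wild type (SE 0.32, adjusted p = 0.00187). In the UTX knockout against wild type Dll1 differed by 0.78 (adjusted p = 0.0911), or by 1.25 (adjusted p = 0.0041) without wild type replicate 1. Hes1, a repressor induced by Notch, moved the other way: it rose by 1.51 in the labelled MLL4 knockdown against wild type (SE 0.21, adjusted p = 0.000591), at 70.7 ± 19.1 CPM against 24.7 ± 3.70 CPM (SD, n = 3 each). Gata2, an interneuron and blood factor, rose by 1.32 in the same comparison (SE 0.32, adjusted p = 0.0108), at 14.1 ± 1.62 CPM against 5.60 ± 2.67 CPM.

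Foxj1, the master regulator of motile cilia, was higher in both perturbed groups than in wild type. On chromosome 11, it stood at 4.41, 4.75 and 4.87 CPM in the labelled MLL4 knockdown, at 2.85, 3.03 and 4.78 CPM in the UTX knockout and at 1.61, 2.17 and 2.02 CPM in wild type. All 6 perturbed libraries lay above the 3 wild type libraries. Foxj1 rose by 1.27 in the labelled MLL4 knockdown (SE 0.25, adjusted p = 0.00369) and by 0.87 in the UTX knockout (SE 0.25, adjusted p = 0.037), both against wild type. The call in the UTX knockout ended when any library except UTX knockout replicate 1 was left out (adjusted p between 0.0506 and 0.138). Its relatives were at higher levels and did not change. Foxj2 stood at 11.4, 15.6 and 15.9 CPM in the labelled MLL4 knockdown, 13.1, 15.9 and 15.6 CPM in the UTX knockout and 12.2, 14.2 and 21.6 CPM in wild type. Foxj3, on chromosome 4, stood at 66.6, 72.4 and 70.0 CPM in the labelled MLL4 knockdown, 54.6, 73.7 and 69.9 CPM in the UTX knockout and 51.3, 44.5 and 63.5 CPM in wild type. The labelled MLL4 knockdown lay above wild type for Foxj3, and the value of 0.39 on the log2 scale (SE 0.15, adjusted p = 0.0773) passed with the replicate block (0.40, adjusted p = 0.0418) and without wild type replicate 3 (0.54, adjusted p = 0.0255).

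Genes of motile cilia, many of them known to be driven by Foxj1, moved in both directions. Of 19 tested genes, 3 rose and 3 fell in the UTX knockout against wild type (median -0.06), 2 rose and 5 fell in the labelled MLL4 knockdown against wild type (median -0.21), and 3 rose and 8 fell between the perturbed groups (median -0.50). Dnaic1, an intermediate chain of the outer dynein arm, stood at 0.699, 0.860 and 0.930 CPM in the labelled MLL4 knockdown, 3.58, 3.42 and 3.67 CPM in the UTX knockout and 5.66, 6.69 and 5.33 CPM in wild type. It fell by 2.81 in the labelled MLL4 knockdown (SE 0.22, adjusted p = 1.44e-05) and by 0.73 in the UTX knockout (SE 0.19, adjusted p = 0.027), and the smaller call ended without wild type replicate 2 (adjusted p = 0.0697), UTX knockout replicate 2 (0.108) or UTX knockout replicate 3 (0.0825). Hydin, a protein of the central pair of the axoneme, fell by 3.41 in the labelled MLL4 knockdown against wild type (SE 0.33, adjusted p = 5.63e-05), at 0.865 ± 0.309 CPM against 9.36 ± 3.13 CPM. Dnajb13, a radial spoke protein, rose by 2.22 in the UTX knockout against wild type (SE 0.26, adjusted p = 0.000737), at 11.9 ± 0.898 CPM against 2.54 ± 0.982 CPM (SD, n = 3 each). Dnaic1 lies on chromosome 4 and Hydin on chromosome 8, whose tested genes had median log2 fold changes of -0.21 and -0.42 in the labelled MLL4 knockdown and of -0.15 and -0.44 in the UTX knockout, against wild type. In the same comparisons the medians of the other autosomes lay between -0.04 and 0.11, and that of the Y chromosome is given above. The part of these chromosome medians in any value given here was not tested.

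Foxm1, which drives genes of mitosis together with the MuvB complex, was higher in the labelled MLL4 knockdown than in the other groups. On chromosome 6, it stood at 115, 111 and 123 CPM in the labelled MLL4 knockdown, at 91.1, 83.2 and 85.7 CPM in the UTX knockout and at 88.9, 74.4 and 92.3 CPM in wild type. The labelled MLL4 knockdown did not overlap either group, and the UTX knockout lay within the range of wild type. The rise was 0.45 against wild type (SE 0.11, adjusted p = 0.0126) and 0.42 against the UTX knockout (SE 0.11, adjusted p = 0.0153). Without labelled MLL4 knockdown replicate 3 both calls ended (adjusted p = 0.0601 and 0.071), and the second also ended without UTX knockout replicate 2 (0.0641) or 3 (0.0612). Of 22 tested FoxM1 targets and partners, 2 changed in the UTX knockout against wild type, both higher (median 0.11; 4 genes with the replicate block). Of the 22, 7 changed in the labelled MLL4 knockdown against wild type, all higher (median 0.25), and 5 rose and 1 fell against the UTX knockout (median 0.19). Lin9, a MuvB subunit, rose by 0.74 in the labelled MLL4 knockdown against wild type (SE 0.12, adjusted p = 0.00134), at 32.9 ± 0.811 CPM against 19.7 ± 1.80 CPM (SD, n = 3 each). Bub1b, a kinase-like protein of the spindle checkpoint, rose by 0.47 in the labelled MLL4 knockdown (SE 0.10, adjusted p = 0.00485) and by 0.35 in the UTX knockout (SE 0.10, adjusted p = 0.0297). The rise of Bub1b in the UTX knockout was no longer called without replicate 2 (adjusted p = 0.116) or 3 (0.07) of the UTX knockout, 2 (0.0532) or 3 (0.0554) of the labelled MLL4 knockdown, or 3 (0.0565) of wild type. Cdc25b, a phosphatase that activates cyclin-dependent kinases, was highest in the UTX knockout: it stood at 63.4 ± 5.30 CPM in the labelled MLL4 knockdown, 85.4 ± 3.87 CPM in the UTX knockout and 43.8 ± 5.78 CPM in wild type, and rose by 0.53 (adjusted p = 0.00844) and 0.96 (adjusted p = 0.00103) against wild type in the perturbed groups in that order.

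Among the FoxO genes, Foxo6 was the member that passed a test, and Foxo3 came close. Foxo6, the least abundant of them and best known from brain, lies on chromosome 4 and stood at 1.83, 2.13 and 2.13 CPM in the labelled MLL4 knockdown, 3.49, 2.81 and 5.11 CPM in the UTX knockout and 1.61, 2.56 and 2.82 CPM in wild type. It fell by 0.90 in the labelled MLL4 knockdown against the UTX knockout (SE 0.29, adjusted p = 0.036), with no overlap of these groups. That call ended without UTX knockout replicate 1 or 3 or any library labelled MLL4 knockdown (adjusted p between 0.0511 and 0.158). Foxo3, a mediator of stress resistance and quiescence, stood at 116, 130 and 123 CPM in the labelled MLL4 knockdown, 118, 195 and 205 CPM in the UTX knockout and 112, 99.4 and 131 CPM in wild type. UTX knockout replicates 2 and 3 were high, and replicate 1 lay within the range of the other groups. The log2 fold change of Foxo3 was 0.60 in the UTX knockout against wild type (SE 0.19, adjusted p = 0.0519) and -0.49 in the labelled MLL4 knockdown against the UTX knockout (SE 0.19, adjusted p = 0.0712). Both passed with the replicate block (0.57, adjusted p = 0.0237, and -0.46, adjusted p = 0.0393) and without UTX knockout replicate 1 (0.81, adjusted p = 0.00511, and -0.70, adjusted p = 0.00436).

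Foxo1 and Foxo4 differed less between groups. Foxo1, known in these cells as an activator of pluripotency genes, stood at 49.0, 47.3 and 48.1 CPM in the labelled MLL4 knockdown, 52.9, 59.6 and 59.2 CPM in the UTX knockout and 55.7, 45.9 and 61.7 CPM in wild type. The groups of Foxo1 did not overlap between the labelled MLL4 knockdown and the UTX knockout, but the log2 fold change of -0.25 (95% interval -0.52 to 0.02) did not pass (adjusted p = 0.15). It passed with the 2 groups alone (adjusted p = 0.0409), the length offset (0.0481) and length offset and block (0.0254). In the labelled MLL4 knockdown against wild type Foxo1 had -0.18 (adjusted p = 0.319). With the length offset that value was -0.34 and passed (0.0246, and 0.0114 with the block added). Foxo4, on the X chromosome, stood at 55.7, 66.3 and 55.0 CPM in the labelled MLL4 knockdown, 62.1, 54.0 and 59.4 CPM in the UTX knockout and 56.4, 56.2 and 61.0 CPM in wild type. Its log2 fold changes were 0.02 in the UTX knockout (95% interval -0.23 to 0.27) and 0.03 in the labelled MLL4 knockdown (-0.22 to 0.28), both against wild type.

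Of 23 tested FoxO target genes, 6 rose and 5 fell in the UTX knockout against wild type (median 0.20), 6 rose and 3 fell in the labelled MLL4 knockdown against wild type (median -0.16), and 3 rose and 5 fell between the perturbed groups (median -0.12). Pdk4, a kinase that shuts pyruvate dehydrogenase, stood at 25.3, 26.3 and 21.3 CPM in the labelled MLL4 knockdown, 25.7, 26.2 and 25.2 CPM in the UTX knockout and 14.0, 11.5 and 13.8 CPM in wild type. It rose by 0.89 in the labelled MLL4 knockdown (SE 0.13, adjusted p = 0.000809) and by 0.97 in the UTX knockout (SE 0.13, adjusted p = 0.00146). Cdkn1a, the p21 inhibitor of cyclin-dependent kinases, fell by 1.00 in the labelled MLL4 knockdown against wild type (SE 0.14, adjusted p = 0.000471), at 23.3 ± 2.34 CPM against 46.7 ± 6.21 CPM. Trim63, a ubiquitin ligase of muscle atrophy on chromosome 4, fell by 3.78 in the labelled MLL4 knockdown (SE 0.32, adjusted p = 2.25e-05) and by 1.23 in the UTX knockout (SE 0.26, adjusted p = 0.0109), with levels of 0.493 ± 0.0820, 2.90 ± 0.868 and, in wild type, 6.82 ± 1.40 CPM. Txnip, an inhibitor of glucose uptake that was picked out after its values were seen, stood at 364, 516 and 482 CPM in the labelled MLL4 knockdown, 972, 1130 and 1030 CPM in the UTX knockout and 570, 330 and 323 CPM in wild type. Txnip rose by 1.36 in the UTX knockout against wild type (SE 0.21, adjusted p = 0.00282). Its log2 fold change in the labelled MLL4 knockdown against wild type was 0.16 (adjusted p = 0.623), or 0.49 (adjusted p = 0.0339) without wild type replicate 1.

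Of 23 tested genes of PI3K-AKT signalling, which acts on FoxO proteins, 2 changed in the UTX knockout, both lower (median 0.04; 5 genes with the replicate block), 4 rose and 1 fell in the labelled MLL4 knockdown (median 0.07), and 5 rose and 3 fell between the perturbed groups (median 0.15). Irs2, an insulin receptor substrate that is itself a FoxO target, stood at 15.6, 14.5 and 14.6 CPM in the labelled MLL4 knockdown, 5.40, 3.89 and 6.83 CPM in the UTX knockout and 15.7, 12.3 and 31.0 CPM in wild type. It fell by 1.87 in the UTX knockout against wild type (SE 0.32, adjusted p = 0.004). Irs2 lies on chromosome 8, whose median in this comparison was -0.44. The catalytic subunits Pik3ca and Pik3cd moved in opposite directions in the labelled MLL4 knockdown against wild type: Pik3ca rose by 0.55 (SE 0.13, adjusted p = 0.00898), at 72.3 ± 0.217 CPM against 49.5 ± 7.77 CPM, and Pik3cd, on chromosome 4, fell by 0.94 (SE 0.16, adjusted p = 0.00168), at 16.7 ± 1.47 CPM against 32.2 ± 3.43 CPM.

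Foxk1, Foxk2, Foxp1 and Foxp4, broadly expressed repressors that recruit histone deacetylase complexes, were among the most abundant members and none of them passed the test. Foxk2 stood at 121, 119 and 111 CPM in the labelled MLL4 knockdown, 114, 122 and 126 CPM in the UTX knockout and 107, 80.9 and 104 CPM in wild type. Both perturbed groups lay above wild type for Foxk2, with log2 fold changes of 0.27 (SE 0.12, adjusted p = 0.126) in the labelled MLL4 knockdown and 0.31 (SE 0.12, adjusted p = 0.103) in the UTX knockout. Foxk1 stood at 42.0, 49.5 and 51.4 CPM in the labelled MLL4 knockdown, 48.3, 49.9 and 59.7 CPM in the UTX knockout and 46.5, 27.9 and 52.1 CPM in wild type, so the groups overlapped. Wild type replicate 2 was the lowest library for both Foxk genes. Foxp1, whose splice form in embryonic stem cells is known to favour pluripotency, stood at 86.4, 81.2 and 91.6 CPM in the labelled MLL4 knockdown, 70.8, 64.2 and 72.6 CPM in the UTX knockout and 82.8, 55.4 and 75.4 CPM in wild type. Counts per gene cannot tell its splice forms apart. The labelled MLL4 knockdown lay above the UTX knockout for Foxp1 (0.32, SE 0.14, adjusted p = 0.114), and the value passed with the replicate block (adjusted p = 0.0481) and without wild type replicate 2 (adjusted p = 0.019). Foxp4 stood at 81.1, 93.5 and 106 CPM in the labelled MLL4 knockdown, 65.8, 48.9 and 86.7 CPM in the UTX knockout and 46.3, 67.1 and 90.2 CPM in wild type. Its log2 fold changes in the labelled MLL4 knockdown of 0.46 against wild type (adjusted p = 0.185) and 0.48 against the UTX knockout (adjusted p = 0.16) passed with the replicate block (both 0.50, adjusted p = 0.0361 and 0.034). Foxp3, the regulator of regulatory T cells, and Foxp2, known for its part in speech circuits, had at most 9 counts in a library.

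Of 13 tested corepressor partners of Foxk and Foxp proteins, 3 changed in the UTX knockout against wild type, all lower (median -0.04), 2 rose and 2 fell in the labelled MLL4 knockdown against wild type (median 0.23), and 3 rose and 1 fell between the perturbed groups (median 0.17). Sin3b, a scaffold of the SIN3 complex, stood at 85.7, 90.4 and 87.9 CPM in the labelled MLL4 knockdown, 79.8, 91.6 and 96.2 CPM in the UTX knockout and 114, 166 and 123 CPM in wild type. It fell by 0.61 in the labelled MLL4 knockdown (SE 0.14, adjusted p = 0.00928) and by 0.59 in the UTX knockout (SE 0.14, adjusted p = 0.0182), and the call in the UTX knockout was lost without its replicate 1 (adjusted p = 0.0502) or 2 (0.0648). Gatad2a, a subunit of the NuRD complex, fell by 0.53 in the UTX knockout against wild type (SE 0.12, adjusted p = 0.0143), at 224 ± 27.7 CPM against 324 ± 34.6 CPM, a call that ended without UTX knockout replicate 2 (adjusted p = 0.0677). Sin3b and Gatad2a both lie on chromosome 8, whose medians against wild type were -0.42 in the labelled MLL4 knockdown and -0.44 in the UTX knockout. The part of these medians in the falls was not tested. Hdac1, a histone deacetylase gene on chromosome 4, fell by 0.57 in the labelled MLL4 knockdown against wild type (SE 0.09, adjusted p = 0.00149), at 230 ± 13.4 CPM against 341 ± 14.5 CPM.

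Foxi3, a gene of ectodermal placodes and teeth, had 22, 21 and 21 counts in the libraries labelled MLL4 knockdown, 53, 65 and 86 in the UTX knockout, against 88, 56 and 80 in wild type. The labelled MLL4 knockdown lay below all other libraries, which overlapped among themselves. Foxi3 fell by 1.78 against wild type (SE 0.31, adjusted p = 0.00185) and by 1.62 against the UTX knockout (SE 0.31, adjusted p = 0.00308), and every alternative kept both calls. Foxi1 and Foxi2 had at most 2 counts in a library.

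Foxr1 and Foxr2, paralogs of germline and early embryo on chromosomes 9 and X, were highest in wild type. Foxr1 had 20, 7 and 25 counts in the labelled MLL4 knockdown, 47, 32 and 33 in the UTX knockout, against 52, 105 and 82 in wild type. The 3 groups of Foxr1 did not overlap in CPM. It fell by 2.12 in the labelled MLL4 knockdown against wild type (SE 0.41, adjusted p = 0.00345), a call every alternative kept. In the UTX knockout against wild type the log2 fold change was -1.06 (SE 0.38, adjusted p = 0.0798), which passed with the replicate block (-1.09, adjusted p = 0.0455), without wild type replicate 1 (-1.21, adjusted p = 0.045) and without labelled MLL4 knockdown replicate 2 (adjusted p = 0.044). Foxr2 had 20, 29 and 29 counts in the labelled MLL4 knockdown, 24, 18 and 14 in the UTX knockout, against 73, 24 and 67 in wild type, where replicate 2 overlapped the other groups. It fell by 1.57 in the UTX knockout against wild type (SE 0.44, adjusted p = 0.0342), a call that was lost without replicate 1 or 3 of wild type, 2 or 3 of the UTX knockout or 2 or 3 of the labelled MLL4 knockdown (adjusted p between 0.0543 and 0.125). Foxr2 had -1.07 in the labelled MLL4 knockdown against wild type (adjusted p = 0.0849), or -1.46 (adjusted p = 0.00794) without wild type replicate 2.

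Foxc2, a gene of mesoderm and lymphatic vessels on chromosome 8, had 11, 13 and 17 counts in the labelled MLL4 knockdown, 24, 29 and 44 in the UTX knockout, against 13, 33 and 22 in wild type. It fell by 1.20 in the labelled MLL4 knockdown against the UTX knockout (SE 0.37, adjusted p = 0.0303), and the 2 groups did not overlap. The 7 blood and endothelium markers, of which Hbb-b1 was at 0 in every library, summed to 32.2 to 40.1 CPM in the labelled MLL4 knockdown, 99.0 to 121 CPM in the UTX knockout and 101 to 111 CPM in wild type. Of the 4 tested, 1 rose and 3 fell in the labelled MLL4 knockdown against the UTX knockout, so the sum does not stand for each marker. The part of these markers in the Foxc2 value was not tested. The Foxc2 call ended without UTX knockout replicate 2 or 3 or any library labelled MLL4 knockdown (adjusted p between 0.0558 and 0.13). In the annotation used here exons of Foxd3, Foxe1, Foxj2, Foxm1, Foxo1, Foxp1 and Foxq1 overlap exons of another gene, over as much as 3200 bases for Foxq1. So do exons of the untested members Foxb1, Foxf2, Foxl2 and Foxp3. The strand setting of the counting is not stated, so reads in these stretches cannot be assigned with certainty.

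The remaining tested members, Foxa1, Foxa3, Foxc1, Foxe1 and Foxq1, passed in no comparison and had means between 0.453 and 1.54 CPM. Foxa1, a pioneer factor of endoderm, was the closest. Its counts were 49, 49 and 36 in the labelled MLL4 knockdown, 29, 16 and 23 in the UTX knockout, against 37, 33 and 21 in wild type. The labelled MLL4 knockdown lay above the UTX knockout (1.02, SE 0.36, adjusted p = 0.0531), and the value passed with the replicate block (adjusted p = 0.015) and without wild type replicate 1 (0.0348), wild type replicate 3 (0.0476) or UTX knockout replicate 1 (0.0386). Foxe1, a thyroid gene with 4 to 21 counts in a library, had -1.28 in the labelled MLL4 knockdown against wild type (adjusted p = 0.0749; 0.0454 with the replicate block), and without wild type replicate 1 it passed in the labelled MLL4 knockdown (-1.57, adjusted p = 0.0246) and in the UTX knockout (-1.48, adjusted p = 0.0392). Foxa3 had -0.73 in the labelled MLL4 knockdown against wild type (adjusted p = 0.0808), or -0.86 (adjusted p = 0.0485) without wild type replicate 1.

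Foxa2, the endoderm pioneer factor, was too low to test: it had 5, 2 and 6 counts in the labelled MLL4 knockdown, 1, 2 and 3 in the UTX knockout, against 1, 3 and 0 in wild type. A difference in Foxa2 was not detectable at this depth. Of the 12 endoderm genes listed with it 7 were tested, and 1 rose and 1 fell in each perturbed group against wild type (medians 0.71 in the UTX knockout and 0.54 in the labelled MLL4 knockdown), while 2 rose between the perturbed groups (median -0.16). The gene that fell in both was Hnf4a, a nuclear receptor of liver and visceral endoderm, with 1, 0 and 1 counts in the labelled MLL4 knockdown, 2, 0 and 0 in the UTX knockout, against 27, 13 and 18 in wild type. Its ratio to wild type per scaled library size was 0.0355 in the labelled MLL4 knockdown (exact 95% counting interval 0.00419 to 0.134, adjusted p = 0.00218). It was 0.0345 in the UTX knockout (0.00408 to 0.13, adjusted p = 0.00477). Both intervals pool the 3 libraries of each group and cover counting noise only, so they leave out the spread between libraries. Gata6, which specifies primitive endoderm, stood at 2.85, 2.62 and 2.66 CPM in the labelled MLL4 knockdown, 1.03, 1.47 and 2.14 CPM in the UTX knockout and 0.935, 0.895 and 0.985 CPM in wild type. It rose by 1.52 in the labelled MLL4 knockdown against wild type (SE 0.29, adjusted p = 0.00344), and in the UTX knockout it had 0.72 (adjusted p = 0.127; 0.0445 without UTX knockout replicate 1). Gata4, its partner, rose by 0.65 in the UTX knockout against wild type (SE 0.18, adjusted p = 0.0304), at 9.31 ± 1.56 CPM against 5.92 ± 0.787 CPM (SD, n = 3 each). The call of Gata4 was lost without replicate 1 or 2 of wild type, 2 or 3 of the UTX knockout or 2 or 3 of the labelled MLL4 knockdown (adjusted p between 0.0508 and 0.114). The 8 primitive endoderm markers, which include both, summed to 305 to 349 CPM in the labelled MLL4 knockdown, 319 to 472 CPM in the UTX knockout and 157 to 256 CPM in wild type.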

How the data were processed

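Gene expression was measured by RNA sequencing of total RNA with a TruSeq kit, per the labels' protocols. The authors deposited raw counts of reads by gene symbol, with a column for each of the 9 libraries, each matched to a library by its title. Per the submitters' processing notes, which assign no roles, the tools were STAR 2.4 and HTSeq 0.6.1 and the builds were hg19 and mm9. The sources used here give neither the strand setting nor the annotation release. The unit used throughout is the deposited count.

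From the counts, edgeR 4.0.16 in R 4.3.3 (glmQLFit and glmQLFTest, TMM factors, filterByExpr by group, a term for group only, all 9 libraries) tested 14772 genes, two-sided, with Benjamini-Hochberg adjustment over all of them within each comparison and calls at 0.05. Standard errors are the log2 fold change divided by the root of F. With 3 libraries a group the smallest p of an exact permutation test is 0.1, and no such test was run. DESeq2 1.42.0 was an alternative, beside other scalings, filters, a transcript length offset, the 2 groups alone, lane 2 alone and each library left out. The procedure was tested on simulated data. Total counts lay between 18570746 and 23874816, and 3 counts in a library are worth 0.126 to 0.162 CPM. Within groups every pair of libraries differed beyond sampling noise, with a chi-square of 6.42 to 56.5 per degree of freedom.

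Departures from the group means correlated positively across genes between libraries with the same replicate number. For replicates 1, 2 and 3 the correlations were 0.415, 0.168 and 0.381 between UTX knockout and wild type. Between the labelled MLL4 knockdown and wild type they were 0.416, 0.182 and 0.238, and between both perturbed groups 0.467, 0.181 and 0.308. Pairs of a replicate 1 with another number gave between -0.412 and -0.0853. Pairs of a replicate 2 with a replicate 3 gave between -0.0858 and 0.226. The highest, labelled MLL4 knockdown replicate 2 with UTX knockout replicate 3, lay above the 0.181 of both replicates 2. These values set replicate 1 apart, as a hint from the data, but do not show that replicates 2 and 3 are paired by number. The fit with the replicate block is given where it changed a call.

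Chromosomes and exon lengths were taken from GENCODE vM21 (GRCm38), which is not the build of the counts: 28577 symbols matched as written, 2502 through a synonym and 2845 not at all. Promoters came from RefSeq. Exon lengths per kilobase are unions over all annotated transcripts.

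Members, pathway lists and marker lists were chosen with earlier results of these data known. The lists hold PI3K-AKT regulators of FoxO proteins, FoxO targets, FoxM1 targets and MuvB partners, the Foxh1 and Nodal-SMAD pathway, the Foxa2 endoderm programme, Foxj1 motile cilium genes, Foxn4 and Notch progenitor genes, and Foxk and Foxp corepressor partners. Values in every library are given for members that changed or averaged at least 10 CPM, and from each list up to 3 genes of smallest p in a comparison with wild type are named; for Hnf4a, at 2 counts in each perturbed group, a ratio of counts replaces the fitted fold change. Further, 1 member and 1 list gene counted in the totals are not reported here. Foxf1a does not meet the naming rule and was left out.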

Additional observations from a re-analysis of the deposited data

How the results depend on the processing

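All 19 member calls kept their direction under every alternative that could be fitted. The 4 calls that every alternative kept were those of Foxh1 and Foxr1 in the labelled MLL4 knockdown against wild type and of Foxi3 in both comparisons of that group; lane 2 alone ended the other 15, and it alone ended those of Foxn4, of Foxj1 in the labelled MLL4 knockdown and of Foxd3. DESeq2's size factors within edgeR and a summed count of at least 90 changed no member call. Fitting only the 2 groups compared ended the calls of Foxd1, Foxh1, Foxj1 and Foxr2 in the UTX knockout against wild type (adjusted p = 0.0691, 0.0858, 0.0985 and 0.0759) and, among list genes, of Bub1b, Dnaic1, Gata4, Gatad2a and Sin3b (0.0981, 0.0621, 0.0841, 0.0518 and 0.058). The unfiltered fit and DESeq2 ended that of Foxd1 (0.0636 and 0.077). The unfiltered fit also ended those of Bub1b (0.0518) and Dnaic1 (0.0533) in the same comparison, and the length offset that of Foxh1 (0.0653). Of 32 calls of the named list genes against wild type, lane 2 alone ended 21. The replicate block changed 10 member values to calls, given beside them above, and ended none. Member values that became calls numbered 6 without the filter, 3 under DESeq2 and 4 with the 2 groups alone. They numbered 6 with the length offset and 15 with length offset and block. Without the filter Foxd3 passed against wild type in the labelled MLL4 knockdown (adjusted p = 0.00408) and in the UTX knockout (0.0375). Under DESeq2 Foxo3 (0.0203) and Foxr1 (0.0479) passed in the UTX knockout against wild type. The cause of these changes was not tested, except that lane 2 alone and the fits without a library hold fewer samples.

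In the UTX knockout against wild type 2285 genes and 5 members passed, against 3446 and 7 with the replicate block and 1240 and 1 with the 2 groups alone. The same comparison gave 74 and 0 on lane 2, 4400 and 9 with length offset and block, and 1973 and 3 with at least 50 counts in 3 libraries. In the labelled MLL4 knockdown against wild type 3930 genes and 6 members passed. The counts were 1341 and 3 on lane 2, 5947 and 11 with length offset and block, and 5037 and 10 with the block. Between the labelled MLL4 knockdown and the UTX knockout 4275 and 8 passed, against 1535 and 1 on lane 2 and 6550 and 14 with length offset and block. Leaving out 1 library gave 833 to 2854, 2273 to 4108 and 2556 to 5281 genes in these comparisons, and 1 to 5 members in the first and 3 to 9 in the third.

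Counts of changed list genes ran over wide ranges across the alternatives, with lane 2 alone mostly lowest. In the UTX knockout against wild type they were 0 to 9 for PI3K-AKT (main 2, lane 2 0), 0 to 13 for FoxO targets (main 11, lane 2 0), 0 to 7 for FoxM1 (main 2, lane 2 0), 1 to 7 for Nodal (main 5, lane 2 1), 0 to 3 for endoderm (main 2, lane 2 0), 0 to 8 for cilium (main 6, lane 2 0), 0 to 5 for Notch (main 3, lane 2 0), 0 to 3 for corepressors (main 3, lane 2 0). In the labelled MLL4 knockdown against wild type they were 1 to 9 for PI3K-AKT (main 5, lane 2 1), 5 to 13 for FoxO targets (main 9, lane 2 5), 1 to 11 for FoxM1 (main 7, lane 2 1), 1 to 8 for Nodal (main 3, lane 2 1), 1 to 3 for endoderm (main 2, lane 2 1), 4 to 10 for cilium (main 7, lane 2 4), 3 to 8 for Notch (main 6, lane 2 3), 2 to 7 for corepressors (main 4, lane 2 2). Between the labelled MLL4 knockdown and the UTX knockout they were 4 to 11 for PI3K-AKT (main 8, lane 2 5), 6 to 11 for FoxO targets (main 8, lane 2 6), 2 to 12 for FoxM1 (main 6, lane 2 2), 2 to 7 for Nodal (main 4, lane 2 2), 0 to 2 for endoderm (main 2, lane 2 0), 5 to 12 for cilium (main 11, lane 2 5), 3 to 7 for Notch (main 7, lane 2 3), 2 to 6 for corepressors (main 4, lane 2 3).

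Values that changed sign were of members or list genes past no threshold in that comparison. On lane 2 alone the values were Foxm1 -0.04, Foxn3 -0.05, Foxo1 -0.07, Foxp4 0.16 in the UTX knockout against wild type, and Foxk1 -0.08, Foxo3 -0.03, Foxo4 -0.09, Txnip -0.08 in the labelled MLL4 knockdown against wild type, and Foxo4 -0.14 in the labelled MLL4 knockdown against the UTX knockout. With the length offset the values were Foxm1 -0.01, Foxo1 -0.06, Pik3ca -0.00 in the UTX knockout against wild type, and Foxo3 -0.02 in the labelled MLL4 knockdown against wild type. With length offset and block the values were Foxm1 -0.01, Foxo1 -0.06, Pik3ca -0.00 in the UTX knockout against wild type, and Foxo3 -0.02 in the labelled MLL4 knockdown against wild type. With total counts the values were Foxo4 -0.00 in the UTX knockout against wild type, and Sin3b 0.00 in the labelled MLL4 knockdown against the UTX knockout. Without the filter the values were Foxn3 0.01 in the labelled MLL4 knockdown against wild type, and Sin3b 0.00 in the labelled MLL4 knockdown against the UTX knockout. With the replicate block the values were Foxn3 0.03 in the labelled MLL4 knockdown against wild type. With at least 50 counts in 3 libraries the values were Foxo4 -0.01 in the labelled MLL4 knockdown against wild type, and Foxo4 -0.01 in the labelled MLL4 knockdown against the UTX knockout. Without a library, the values ran, in the UTX knockout against wild type Foxi3 -0.38 to 0.09, Foxj2 -0.25 to 0.17, Foxm1 -0.06 to 0.09, Foxn3 -0.04 to 0.50, Foxo1 -0.04 to 0.17, Foxo4 -0.03 to 0.07, Foxp1 -0.19 to 0.10, Foxp4 -0.23 to 0.24; in the labelled MLL4 knockdown against wild type Foxj2 -0.30 to 0.12, Foxk1 -0.05 to 0.36, Foxn3 -0.34 to 0.20, Foxo4 -0.06 to 0.08, Foxq1 -0.59 to 0.14, Irs2 -0.65 to 0.09, Lefty2 -0.03 to 0.80, Kmt2d (listed as Mll2) -0.51 to 0.16; in the labelled MLL4 knockdown against the UTX knockout Foxc1 -0.43 to 0.07, Foxd1 -0.13 to 0.25, Foxe1 -0.33 to 0.26, Foxj2 -0.14 to 0.09, Foxj3 -0.04 to 0.16, Foxo4 -0.08 to 0.06, Pdk4 -0.14 to 0.01, Sin3b -0.09 to 0.04. The cause was not tested. At these counts a difference in the 15 untested members is not detectable.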
